A study of Caenorhabditis elegans with 2 samples.

Results

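Cytosolic ribosomal protein genes encode the proteins of the ribosome that translates nuclear messages in the cytoplasm. The group was defined by name, as the nuclear protein-coding genes of Caenorhabditis elegans whose symbol is rpl- or rps- followed by a digit, and held 78 of 19973 genes. Of these, 48 belonged to the large subunit (rpl-) and 30 to the small subunit (rps-), and the mitochondrial genes named mrpl- and mrps- were left out. The group was chosen because of peak calls and signal values in the same peak lists that are described here. Its counts are therefore descriptions and carry no test.

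The lists came from chromatin immunoprecipitation with sequencing (ChIP-seq) of FLH-1, a zinc finger protein of the FLYWCH family, in whole embryos. Strain OP702 carries the unc-119(tm4063) mutation and the transgene wgIs702, in which flh-1 is followed by TY1, EGFP and 3xFLAG tags and which also holds unc-119(+), and the precipitation used an antibody against GFP. Embryos of mixed stage and pooled sex, with an age of 2 hours in the labels, were obtained by egg bleaching, and biological replicates 1 and 2 made up a single group. No second genotype, untreated group or untagged strain was analysed here, and whole embryos pool all of their cells. The labels do not name the promoter that drives the transgene.

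Ribosomal proteins surround the ribosomal RNA and are needed in nearly equal amounts, so their genes are known to be expressed together and strongly in growing cells. In C. elegans many of their messages receive a spliced leader, and the annotated 5′ end of such a gene is often the splice acceptor and lies downstream of the start of transcription. FLH-1 is known in embryos as a repressor of microRNA genes that includes lin-4 among its targets.

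Each gene was scored by its strongest list entry whose summit fell no more than 1000 bp upstream or 200 bp downstream of its annotated 5′ end, called the promoter window below. The lists of the pooled reads and of each replicate held 30000 entries each and include background entries, per the names of the deposited lists. The optimal set held 371 peaks, which by the name of the list were left by a comparison of ranks. Of these, 364 were on nuclear chromosomes, and the weakest peak of the set had a signal value of 90.3. Signal values are those of the authors' peak caller, have no stated unit and were compared within a list. Library depth is unknown, since the lists hold no counts, and no list can be used to check the embryos' stage by their transcripts.

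An optimal peak lay in the promoter window of 5 of the 78 ribosomal protein genes, or 6.41%, against 0.921% of all protein-coding genes. These were rpl-3, rpl-15 and rpl-35 of the large subunit and rps-28 and rps-3A of the small subunit. The 101 bases centred on each of the 5 summits are shown because they hold the strongest entries of the group. They are given from 5′ to 3′ on the strand of the gene, read from the WBcel235 (ce11) genome, with the words AGTGTA and TACGGT in capitals on either strand (TACACT and ACCGTA when reversed). The positions are chrIII:3867544-3867644 on the plus strand for rpl-3, chrIV:654887-654987 on the minus strand for rpl-15, chrIV:1659220-1659320 on the plus strand for rps-28, chrIII:7854654-7854754 on the plus strand for rpl-35 and chrIII:4475603-4475703 on the plus strand for rps-3A.
rpl-3: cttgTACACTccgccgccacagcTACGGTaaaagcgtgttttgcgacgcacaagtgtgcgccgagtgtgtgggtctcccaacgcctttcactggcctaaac
rpl-15: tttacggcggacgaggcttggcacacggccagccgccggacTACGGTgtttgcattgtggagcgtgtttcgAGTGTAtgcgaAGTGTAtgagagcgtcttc
rps-28: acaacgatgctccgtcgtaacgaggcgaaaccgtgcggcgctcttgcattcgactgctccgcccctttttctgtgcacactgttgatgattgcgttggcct
rpl-35: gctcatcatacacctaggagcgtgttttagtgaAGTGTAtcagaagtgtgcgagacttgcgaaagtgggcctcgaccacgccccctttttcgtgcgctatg
rps-3A: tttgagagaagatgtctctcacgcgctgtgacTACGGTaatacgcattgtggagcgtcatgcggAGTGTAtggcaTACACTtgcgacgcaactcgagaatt

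The gene with the strongest entry of the group was rpl-3, whose protein reaches from the surface of the large subunit toward the peptidyl transferase centre. Its pooled entry had a signal value of 199, rank 78 of the pooled list, with a summit 260 bp upstream of the 5′ end. The strongest entry in replicate 1 had a signal value of 138 at rank 71, and that in replicate 2 had a signal value of 62.1 at rank 90. The replicate summits lay 257 and 273 bp upstream. The rpl-3 gene itself (WBGene00004414) spans bases 3867854 to 3869587 of chromosome III, and its summit lay in no other gene's window.

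The next was rpl-15 (WBGene00004427), which encodes a protein buried in the ribosomal RNA of the large subunit and which holds snoRNA genes K11H12.12 and K11H12.13 within its span. Its pooled signal value was 147 at rank 139, with the summit 361 bp upstream. Replicate 1 gave 87.6 at rank 178 and replicate 2 gave 56.1 at rank 119. The summit also lay 453 bp upstream of K11H12.8, a divergent gene whose 5′ end is 814 bp from that of rpl-15, so the entry belongs to both windows.

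Of the small subunit genes, rps-28 (WBGene00004497), whose product sits near the exit of the messenger RNA channel, had the strongest entry. The pooled signal value was 133 at rank 163 with a summit 421 bp upstream. Replicate 1 gave 94.2 at rank 147 and replicate 2 gave 38.4 at rank 278. The same summit lay 840 bp upstream of Y41D4B.4 on the same strand.

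The rpl-35 gene (WBGene00004449), which encodes a protein near the exit of the nascent chain tunnel, had a pooled signal value of 122.8 at rank 205 and a summit 430 bp upstream. Replicate 1 gave 79.2 at rank 227 and replicate 2 gave 40.8 at rank 237. The summit fell in no other gene's window.

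The weakest of the 5 was rps-3A (WBGene00004470), whose product lies on the platform of the small subunit. Its pooled signal value was 111 at rank 246, with the summit 265 bp upstream. Replicate 1 gave 74.3 at rank 261 and replicate 2 gave 33.6 at rank 398. The summit lay 503 bp upstream of the divergent gene ifet-1, and the 101-base window overlapped the annotated non-coding RNA genes F56F3.10 and F56F3.11.

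All 5 summits lay between 260 and 430 bp upstream, outside the exons and introns of protein-coding genes, and none had a tRNA or snoRNA gene within 100 bp. Both replicates had an entry with a summit within 100 bp of each of the 5. Over all protein-coding genes, 135 of the 141 distinct entries that were optimal peaks (95.7%) had this support. Of the group, 4 genes, rpl-3, rpl-15, rps-28 and rpl-35, were among the 371 strongest entries of both replicates, against 0.566% of all protein-coding genes, and rps-3A missed that limit in replicate 2 alone.

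**Figure D1:**
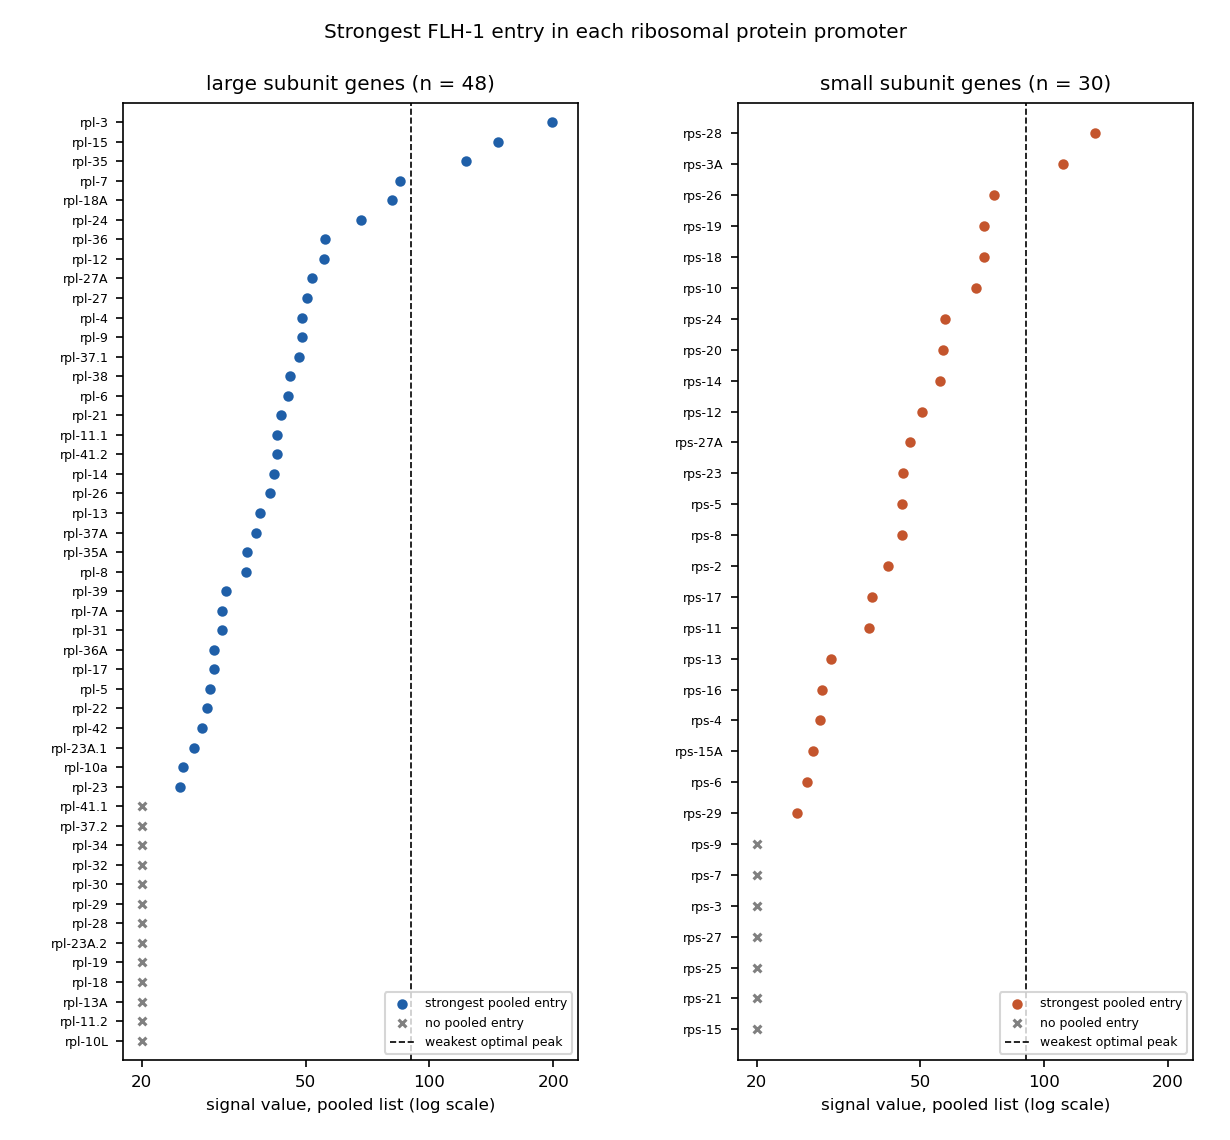
Signal value of the strongest pooled entry in the promoter window of each of the 48 large and 30 small subunit genes, on a log scale, with crosses for genes with no pooled entry and a dashed line at the weakest optimal peak (90.3). The 5 genes right of the line lie between 111 and 199, and the other scored genes lie between 24.7 and 84.6.

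Genes just below the optimal set are given as a description of the limit. The strongest were rpl-7, with a pooled signal value of 84.6 at rank 438, and rpl-18A, with 81.1 at rank 485, which both encode large subunit proteins. These ranks follow that of rps-3A, at 246, and signal values of 84.6 and 111 stand on either side of the limit. Entries for rpl-7 had signal values of 45.3 at rank 1281 in replicate 1 and 37.8 at rank 289 in replicate 2. For rpl-18A they were 46.5 at rank 1153 and 31.9 at rank 473.

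An optimal peak did not always come with like ranks in both replicates. Over all protein-coding genes, 184 had an optimal peak and 184 had one of the 371 strongest pooled entries. Among the 371 strongest entries of both replicates were 113 genes. Below the optimal set, the ranks of a ribosomal protein gene often differed. The small subunit gene rps-26, whose product lines the exit of the messenger RNA channel, had a pooled signal value of 75.7 at rank 585, with rank 438 in replicate 1 and rank 7984 in replicate 2. Its summit lay within 100 bp of the snoRNA gene F39B2.14. For rps-19, which encodes a protein of the small subunit head, the pooled signal value was 71.4, and the entry was at rank 845 in replicate 1 and 273 in replicate 2. For rps-18, also of the head, the pooled signal value was 71.3, and the entry was at rank 464 in replicate 1 and 15479 in replicate 2.

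A large and a small subunit gene, rpl-24 and rps-10, are transcribed away from each other with 5′ ends 610 bp apart, and the same pooled entry of signal value 68.1 scored both. It was at rank 646 in replicate 1, and replicate 2 had no entry within 100 bp of it. Similarly, 1 entry of signal value 55.8 scored both rpl-36 and rps-14. Between these in signal were rps-24 with 57.4, at ranks 2022 and 4356 in replicates 1 and 2, and rps-20 with 56.6, at ranks 1282 and 13019. The 58 scored genes therefore rest on 56 distinct pooled entries, and the subunits are not independent sets.

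With a limit at 2 times the number of optimal peaks, the 5 bound genes were among the strongest entries of both replicates. A further 4 genes (rps-26, rps-18, rpl-24 and rps-10) were inside in replicate 1 alone, and 3 genes (rpl-7, rpl-18A and rps-19) in replicate 2 alone. The shares of all protein-coding genes inside this limit by replicate were not counted, so these counts are not read as a result. Of the 42 genes scored in both replicates, 21 had the better rank in replicate 1 and 21 in replicate 2. Across these 42 genes, Spearman's correlation of the replicate signal values was 0.347, and across all 3666 protein-coding genes scored in both it was 0.322. Both are descriptions across genes, which are not independent replicates.

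**Figure D2:**
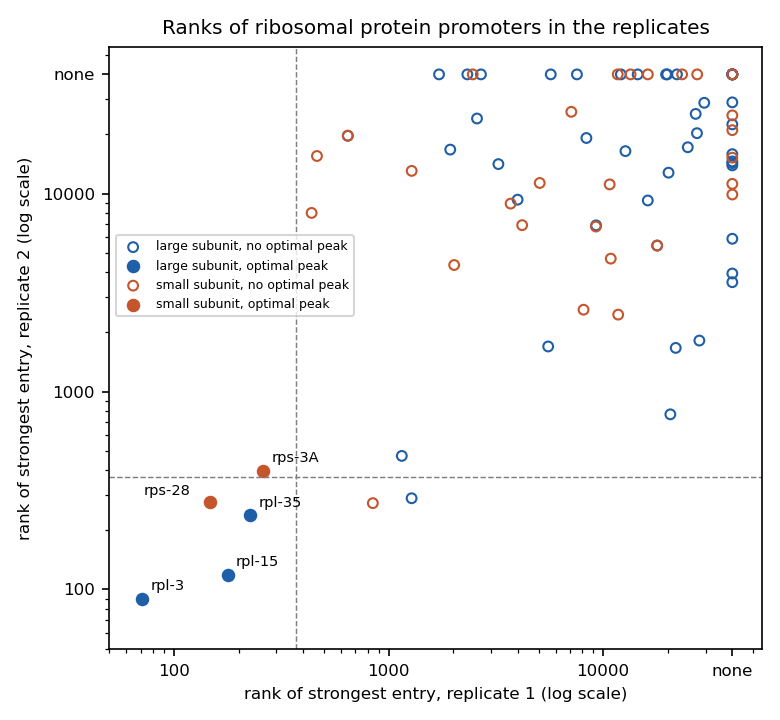
Rank of the strongest entry in the promoter window of each ribosomal protein gene in replicate 1 (horizontal) and replicate 2 (vertical), on log scales, with genes lacking an entry placed at "none" and dashed lines at rank 371. The 5 genes with an optimal peak lie at the lower left, where rps-3A is just above the line at rank 398, and most other genes have ranks above 1000 in at least 1 replicate.

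Weak entries were widespread in the group. A pooled entry of any strength was present for 58 of 78 genes (74.4%), against 34.1% of all protein-coding genes. Replicate 1 had an entry for 58 genes (74.4%, background 33.8) and replicate 2 for 56 genes (71.8%, background 33.9). An entry was present in all 3 of these lists for 39 genes (50%), against 16.9% of all protein-coding genes. The median pooled signal value of the 58 scored genes was 44.2, and over all 6806 scored protein-coding genes it was 34.0.

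Among the 3000 strongest pooled entries, 20 of the 78 genes (25.6%) had an entry, against 5.53% of all protein-coding genes. At the other end, rpl-10L, rpl-18, rpl-23A.2, rpl-29, rpl-32 and rps-7 had no entry in any of the 3 lists. These 6 genes were 7.69% of the group, and 48.8% of all protein-coding genes had none. A further 14 genes had no pooled entry but were listed in a replicate, a count not made over all protein-coding genes and not read as a result. Among them, rps-15 had ranks 9252 and 6815, rpl-19 had ranks 26997 and 25263, and rpl-11.2 was also listed in both. Replicate 1 alone listed rps-3, rps-9, rps-21, rpl-13A and rpl-41.1, and replicate 2 alone listed rps-25, rps-27, rpl-28, rpl-30, rpl-34 and rpl-37.2, the best of them rpl-34 at rank 3946. The lists are limited to 30000 entries each, so no entry means that none ranked high enough to be listed.

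A partner within 100 bp in both replicates was found for 25 of the 58 scored genes. Another 17 had a partner only in replicate 1 and 9 only in replicate 2, and 7 had none, among them rps-24 and rpl-13. Counted by distinct entries, 42.9% of those of the group had both partners, against 26.6% of those of all protein-coding genes. For the genes below the optimal set, 19 of 51 distinct entries (37.3%) had both.

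Large and small subunit genes had similar counts. An optimal peak was present at 3 of 48 large subunit genes (6.25%) and 2 of 30 small subunit genes (6.67%). A pooled entry was present at 35 large subunit genes (72.9%) and 23 small subunit genes (76.7%), and entries in all 3 lists at 22 (45.8%) and 17 (56.7%). The order of the shares with a pooled entry depended on the window: within 500 bp upstream they were 66.7% for the large and 53.3% for the small subunit. The median pooled signal value was 42.7 for the large and 45.4 for the small subunit, with interquartile ranges of 31.3 to 51.2 and 34.0 to 62.8. All scored small subunit genes, from 25.06 to 133, fell within the range of the large subunit genes, from 24.7 to 199, and rpl-3 and rpl-15 lay above every small subunit gene.

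The difference in medians, large minus small, was -2.76 in the pooled list, -3.23 in replicate 1 and -1.70 in replicate 2, in the signal unit of each list. Among the 3000 strongest pooled entries were 10 of 48 large (20.8%) and 10 of 30 small subunit genes (33.3%). Among the 12000 strongest the shares were 50% and 56.7%, and among the 20000 strongest 64.6% and 63.3%, so the order of the subunits was not the same at all limits. No test was made of the difference, as the group was chosen on these lists.

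**Figure D3:**
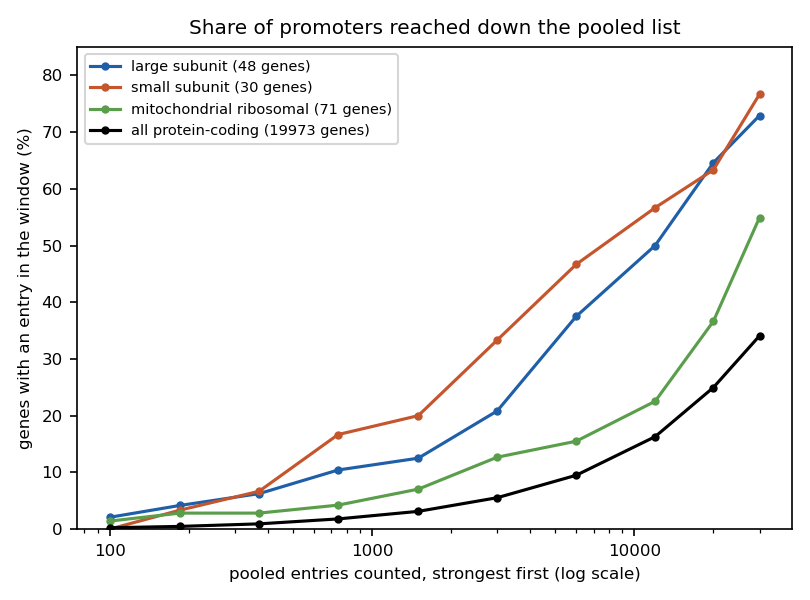
Share of genes with an entry in the promoter window as more of the pooled list is counted, strongest first, on a log scale, for large subunit, small subunit, mitochondrial ribosomal and all protein-coding genes. At 3000 entries the shares are 20.8%, 33.3%, 12.7% and 5.53%, and both cytosolic lines stay above the line of all genes from 371 entries on.

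Ribosomal proteins can also be split by ancestry into those with a counterpart in bacteria and those without. The 33 genes with a bacterial counterpart had a pooled entry in 26 cases (78.8%) with a median signal value of 42.2, and 2 of them, rpl-3 and rpl-35, had an optimal peak. The other 45 genes had a pooled entry in 32 cases (71.1%) with a median of 45.1, and 3 of them, rpl-15, rps-28 and rps-3A, had an optimal peak. The shares with an optimal peak were thus alike, at 6.06% and 6.67%. In the small subunit, both optimal peaks fell among the 16 genes without a bacterial counterpart (12.5%), and the 14 genes with one had none. The order was the other way in the large subunit, at 2 of 19 genes with a counterpart (10.5%) and 1 of 29 without (3.45%).

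The group holds 4 pairs of genes with a shared number, which are related copies. In each pair, 1 copy had a pooled entry and the other had none. The scored copies were rpl-11.1 with a signal value of 42.7, rpl-23A.1 with 26.7, rpl-37.1 with 48.2 and rpl-41.2 with 42.7. Of the other copies, rpl-11.2 was listed in both replicates (ranks 29595 and 28741), rpl-37.2 in replicate 2 alone (rank 15812), rpl-41.1 in replicate 1 alone (rank 22084) and rpl-23A.2 in neither. How reads that map equally well to both copies were treated is not given in the labels or files.

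Most of the summits lay upstream. Of the 58 strongest pooled summits, 46 (79.3%) were upstream of the 5′ end, against 81.6% for all protein-coding genes. The median position was 240.5 bp upstream for the group, 190 bp for the large and 421 bp for the small subunit, and 316 bp for all scored protein-coding genes. From 200 to 500 bp upstream, where all 5 optimal summits lay, were 18 of the 58 summits (31.0%) and 25.9% of those of all genes. The 18 include those 5, around which the range lies, so the higher share of the group carries no weight. The nearest 5′ end of a protein-coding gene was that of the ribosomal protein gene itself for 43 of 58, and 36 of 58 summits also fell in the window of another gene. Neither share was counted over all protein-coding genes, so neither is read as a result.

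**Figure D4:**
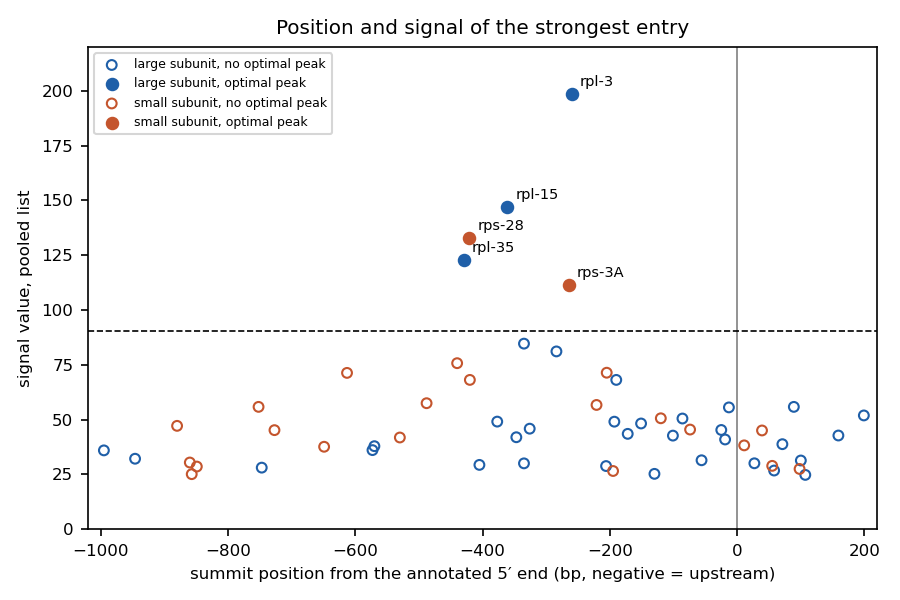
Position of the strongest pooled summit relative to the annotated 5′ end (horizontal, bp, negative upstream) and its signal value (vertical) for the 58 scored genes, with a dashed line at the weakest optimal peak. The 5 labelled optimal summits lie between 430 and 260 bp upstream, and the weaker summits are spread over the whole window.

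By distinct entry, 64.3% of the summits were between protein-coding genes and 14 of 56 lay in coding exons, against 57.3% and 22.1% over all genes. In the small subunit, 13 of 23 summits were between genes, 6 in coding exons, 3 in untranslated exons and 1 in an intron. In the large subunit, the counts were 24, 9, 0 and 2 of 35. The entry of rpl-27A lay within 100 bp of a snoRNA gene in its own intron, and apart from it and rps-26 no summit of the group was that close to a tRNA or snoRNA gene.

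Small nucleolar RNAs guide the modification of ribosomal RNA, and in worms many lie inside introns of ribosomal protein genes. A snoRNA gene was annotated inside 15 of the 78 genes, and all 15 had a pooled entry, with a median signal value of 45.4. The highest were rpl-15 at 147, rpl-7 at 84.6 and rpl-24 at 68.1, and the lowest was rps-29 at 25.06. Of the 63 genes with no snoRNA inside, 43 (68.3%) had an entry, with a median of 42.7. Over all protein-coding genes, 110 of 192 hosts (57.3%) and 33.9% of the others had one.

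Many of the genes share their upstream region with a divergent neighbour. A divergent protein-coding 5′ end lay within 1000 bp of 46 of the 78, and of 3539 of all 19973 protein-coding genes. Of the 46, 36 (78.3%) had a pooled entry, against 22 of the other 32 (68.8%). Over all protein-coding genes the shares were 42.9% and 32.2%. An optimal peak was present at 2 of the 46 divergent genes, rpl-15 and rps-3A, and at 3 of the 32 others. These are 4.35% and 9.38%, against 1.84% of all divergent and 0.724% of all other protein-coding genes. A gene on the same strand ended within 500 bp upstream of 8 ribosomal protein genes, of which 5 had a pooled entry and none an optimal peak. The shares over all protein-coding genes with such a neighbour were not counted, so these counts are not read as a result.

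By chromosome, an optimal peak was found at 3 of 18 genes on III (16.7%, against 1.63% of all protein-coding genes there) and 2 of 17 on IV (11.8%, against 0.945%). There was none at the 23 genes on I, 11 on II, 7 on V and 2 on X, where the strongest were rpl-7, rpl-37.1, rpl-38 and rpl-23A.1. The shares with a pooled entry were 77.8% on III (41.7% of all protein-coding genes there), 76.5% on IV (31.5%), 73.9% on I (40.6%), 72.7% on II (34.4%) and 71.4% on V (27.01%). On X, 1 of 2 genes had a pooled entry, against 35.3% of all.

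The GC content of the 101 bases around the summit was 54.7% ± 3.53 (SD) over the 5 optimal summits and 42.0% ± 9.53 over the other 51 distinct entries of the group. It was 50.3% ± 8.51 over the 141 distinct optimal entries at protein-coding genes, and 40.7% ± 9.21 over all 5952 distinct scored entries. With 100 bases to each side, the mean was 44.4% ± 1.74 over the 5, 40.5% ± 6.89 over the 51 and 46.3% ± 7.03 over the 141, so the 5 were richer in GC than the 141 in the narrower window and poorer in the wider one. Large and small subunit summits had 43.8% and 42.1% in 101 bases. Among summits without an optimal peak, those of rpl-7 (66.3%) and rpl-23A.1 (60.4%) were richer in GC than all 5 optimal summits. The mean GC content was thus higher over the 5 optimal summits than over the other 51 entries, and its part in the result was not tested.

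**Figure D5:**
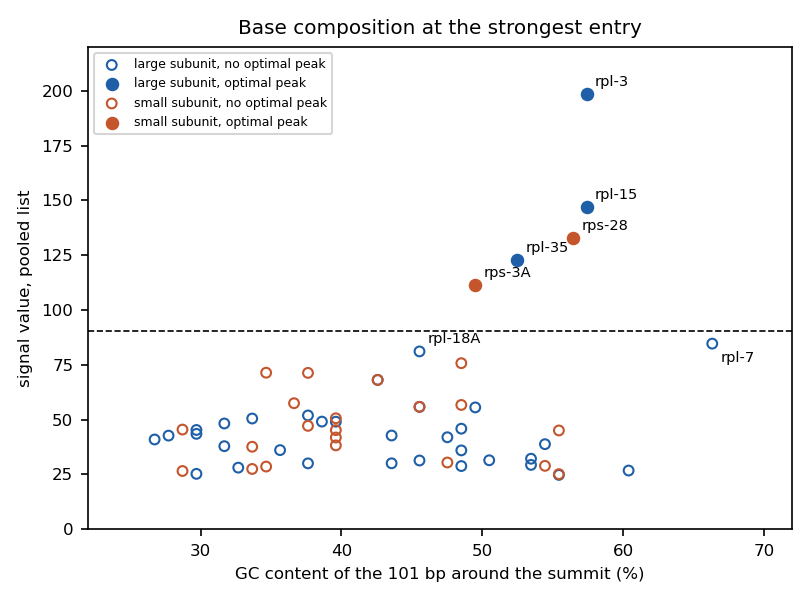
GC content of the 101 bp around the strongest pooled summit (horizontal, percent) and signal value of that entry (vertical) for the 58 scored genes, with a dashed line at the weakest optimal peak. The 5 optimal summits lie between 49.5% and 57.4%, and the weaker summits extend to both sides of that range.

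The words in capitals above were picked by looking for 6-base runs shared by the 5 optimal summits, so their counts there carry no weight. No 6-base word was in all 5, 3 words were in 4 of them and 19 were in 3 or more. AGTGTA was present on either strand in 4 of the 5 windows. It was present in 3 of the 51 other distinct entries of the group, in 7 of 136 other optimal entries at protein-coding genes and in 3.75% of all 5952. TACGGT was present in 3 of the 5, in 7 of the 51, in 1 of the 136 and in 3.16% of all. The window of rps-28 held neither word. The other words in 4 of the 5 were AAGTGT, which overlaps AGTGTA by 5 letters, and GCACAC. The word AAGTGT was in 2 of the 51, 17 of the 136 (12.5%) and 6.27% of all, and GCACAC in 4 of the 51, 27 of the 136 (19.9%) and 5.61% of all. AGTGTA and TACGGT were thus picked for printing with their lower counts at other optimal entries in view.

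Both words together were present in 8 of the 5952 windows, of which 5 belonged to ribosomal protein genes. These were rpl-3, rpl-15, rps-3A, rpl-18A and rpl-38, with pooled ranks of 78, 139, 246, 485 and 4442. The other windows with both words were at Y54G2A.45 (rank 238), T02D1.9 (rank 17169) and unc-36 (rank 25454). Of the 5, rpl-3, rpl-15 and rps-3A had windows from which the words were picked, so their presence here carries no weight. The genes rpl-18A and rpl-38 had no optimal peak. The window of rpl-18A at chrIV:4750012-4750112 on the minus strand is shown for comparison with those above, together with that of rps-24 at chrIV:385349-385449 on the plus strand, a weaker entry with neither word.
rpl-18A: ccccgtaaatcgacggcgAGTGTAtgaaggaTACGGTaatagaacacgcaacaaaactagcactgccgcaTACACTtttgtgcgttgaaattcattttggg
rps-24: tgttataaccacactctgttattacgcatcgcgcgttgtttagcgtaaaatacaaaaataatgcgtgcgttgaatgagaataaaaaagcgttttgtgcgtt

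The windows of rpl-15 and rps-3A, a large and a small subunit gene on different chromosomes, shared the 14-base run GCATTGTGGAGCGT between the 2 words. In both, TACGGT came before it, AGTGTA began 30 bases after the start of TACGGT in rpl-15 and 32 bases after in rps-3A, and another AGTGTA began 11 bases further on, reversed in rps-3A. The run was found as the longest shared by these windows, so at least 2 of the 5952 windows had to hold it. No further window did. The longest run shared by a pair of the 5 windows had a median of 9.5 bases over 10 pairs, against 7 bases over the 1540 pairs of distinct entries of the group. The pairs were not matched for signal or GC content, and pairs of other optimal entries were not compared. Of those 1540 pairs, 3 shared a run of 14 or more bases.

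Over whole promoter windows of 1201 bases, AGTGTA was present in 25 of the 78 windows of ribosomal protein genes (32.1%) and in 36.1% of all protein-coding genes. TACGGT was present in 40 of the 78 (51.3%) and in 28.6% of all, including 5 of the 6 genes with no entry in any list. It was present in 27 of 48 large (56.3%) and 13 of 30 small subunit windows (43.3%). Both words together were in 10 of the 78 (12.8%) and in 10.3% of all. A match is a run of letters and is not evidence of a bound factor.

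Of 8 other words searched at the summits on either strand, GTTCGA was present in 5 of the 56 distinct entries (8.93%, against 3.60% of all 5952) and in none of the 5 optimal ones. GCGCGC was in none of the 56 and in 2.45% of all. TGCGTC was in 3 of the 56 (5.36% against 4.81%), and 2 of these were the optimal summits of rpl-3 and rps-3A. TTGCAA was in 3 (5.36% against 5.07%), GAGAGA in 3 (5.36% against 10.8%), TATAAA in 2 (3.57% against 8.72%), GGGCGG in 1 (1.79% against 4.32%) and TTTCAG in 10 (17.9% against 16.9%). Some of these 8 words came from earlier results of these data.

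The bases just before the annotated 5′ end are shown for the 5 bound genes because they bear on where transcription starts relative to the summits. The 30 bases end directly before the 5′ end, with CAG, or TTTCAG where it is complete, in capitals. They lie at chrIII:3867824-3867853 (plus) for rpl-3, chrIV:654577-654606 (minus) for rpl-15, chrIV:1659661-1659690 (plus) for rps-28, chrIII:7855104-7855133 (plus) for rpl-35 and chrIII:4475888-4475917 (plus) for rps-3A.
rpl-3: taattttttcgtaaaattaatattTTTCAG
rpl-15: atctcgttattctaaccttttttcTTTCAG
rps-28: ttttgtctttataatttcaatttcTTTCAG
rpl-35: ttataatttttaagcaatctcattattCAG
rps-3A: tactgttaaattatgtattcctatTTTCAG

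The letters TTTCAG are those of the worm 3′ splice site consensus, at which a spliced leader can be joined. All 5 bound genes had CAG directly before the annotated 5′ end and 4 had TTTCAG. In the whole group, 62 of 78 had CAG (79.5%, against 22.1% of all protein-coding genes) and 39 had TTTCAG (50%, against 12.3%). The shares were alike in the subunits, with CAG in 79.2% of large and 80.0% of small subunit genes and TTTCAG in 50% of each. For genes annotated from such a site, distances of summits to the 5′ end are distances to the annotated end and not to the start of transcription. From 250 bases before to 50 after the 5′ end, GC content was 33.3% ± 3.31 (SD) over the 78 genes and 34.8% ± 5.30 over all protein-coding genes.

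Other gene lists of the translation system were scored in the same way, and they too were chosen with earlier results of these data known. Of 71 mitochondrial ribosomal protein genes, 39 (54.9%) had a pooled entry with a median signal value of 32.8, and 2 (2.82%) had an optimal peak. These were mrps-28, with a signal value of 376 at rank 13, and mrpl-23, with 148. Their summits lay 983 and 973 bp upstream, near the edge of the window. The strongest replicate 2 entry in the mrps-28 window was at rank 9556, and entries beyond the window were not counted. Of 32 translation initiation factor genes, 21 (65.6%) had a pooled entry and 2 (6.25%) an optimal peak, namely eif-3.C with 201.0 and eif-2Bgamma with 104. That share of optimal peaks is close to the 6.41% of the ribosomal protein genes.

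No optimal peak was found at 9 elongation and release factor genes, 20 cytosolic tRNA synthetase genes, 20 ribosome assembly and nucleolar genes, 10 subunit genes of RNA polymerases I and III or 8 further cytosolic ribosomal protein genes outside the rpl- and rps- names. Pooled entries were present at 8 (88.9%), 12 (60%), 15 (75%), 7 (70%) and 4 (50%) of these. The share was 74.4% of the ribosomal protein genes and 34.1% of all protein-coding genes. A high share with a pooled entry was thus not particular to the ribosomal protein genes. The strongest was that of erfa-3, a release factor gene, at 80.6. The median signal values of the scored genes ranged from 29.5 for the polymerase subunits to 39.9 for the elongation and release factors, below the 44.2 of the ribosomal protein genes.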

How the data were processed

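FLH-1 ChIP-seq peak lists of biological replicates 1 and 2, of their pooled reads and of the optimal set were used as the authors deposited them. Per the file headers and description files, alignments to ce11 against a control alignment were used. What aligner, peak caller and threshold of the rank comparison were used is not given in the sources used here. Entries were ranked within a list by their deposited signal value (column 7), which was not compared between lists. The deposited −log10 q value (column 9) reached a shared ceiling and was not used. The summit was the start plus the deposited offset, and other columns were not used. The lists give no counts, so the depth and its error are unknown.

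Gene ends came from Ensembl release 115 (WBcel235). RefSeq symbols, joined on WormBase identifiers, matched 46881 of 46926 genes. Ensembl symbols also gave 78 members, of which 75 were shared. Windows, 101-base summit sequences, promoters and words (both strands) were read from the RefSeq genome of the same assembly with Python 3.11.15, pandas 2.3.3 and numpy 2.4.6, correlations with scipy 1.17.1 and plots with matplotlib 3.10.9. The assignment of summits was tested on simulated data. Named genes were those with an optimal peak, the 15 with the highest pooled signal, the 5 best ranked in each replicate, those with no pooled entry, copies with a shared number, those high in 1 replicate alone and the strongest of each other list. Other members were named after their values were seen.

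The members and lists were chosen with earlier results of these data known. As there was 1 group, no comparison between conditions and no test was made. Words were searched after the sequences had been seen, apart from the 8 listed last, some of which came from earlier results of these data. Alternatives covered the window, the assignment of entries, the number of entries kept, entries at small RNA genes and each replicate alone.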

Additional observations from a re-analysis of the deposited data

How the results depend on the processing

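The main values were 5 genes with an optimal peak (3 large, 2 small), 58 with a pooled entry (35 large, 23 small), median signal values of 42.7 and 45.4 with a difference (large minus small) of -2.76, and 4 genes among the strongest entries of both replicates. All 10 of these values stayed within 1.5 times with 2000 bp upstream, all transcript 5′ ends, or entries at tRNA and snoRNA genes left out. The same held with Ensembl symbols, a setting chosen after seeing the data. The difference in medians became -4.91 with 500 bp upstream, -5.20 with 500 bp downstream and -4.52 with overlap of the entry in place of its summit. With each summit given to the nearest 5′ end alone, 15 small subunit genes had a pooled entry. With 0.5 times as many entries as the optimal set, the strongest, 3 genes were inside, 1 of them of the small subunit, and 2 were inside in both replicates. With 2 times as many, 10 genes were inside, 5 of each subunit. The order of the subunits was not stable. The share with a pooled entry, lower in the large subunit in the main setting (72.9% and 76.7%), was higher with 500 bp upstream (66.7% and 53.3%), the nearest 5′ end alone (62.5% and 50%) and Ensembl symbols (72.3% and 71.0%). The share with an optimal peak (6.25% and 6.67%) turned with 2000 bp upstream or replicate 2 alone (both 8.33% and 6.67%) and with 0.5 times as many entries (4.17% and 3.33%). The difference in medians kept its sign.

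Of the 8 word shares at the summits, 5 moved by over 1.5 times with 25 bp to each side and 4 with 100 bp. Against all scored entries, TTGCAA turned from higher to lower with 100 bp (7.14% and 9.74%) and 25 bp (1.79% and 2.79%), TTTCAG with 25 bp (7.14% and 8.27%) and TGCGTC with 100 bp (5.36% and 8.80%), and GCGCGC turned from lower to higher with 100 bp (5.36% and 4.02%). The causes were not tested.

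With 1 replicate in place of the pooled list, 5 to 6 genes were among the 371 strongest, 3 to 4 of them large subunit and 2 small subunit genes, and 56 to 58 had an entry (33 to 34 large, 23 to 24 small). Medians were 13.9 to 28.6 for the large and 15.6 to 31.8 for the small subunit, with differences from -3.23 to -1.70, on the signal scale of each replicate's own list. Depth limits are unknown without counts. No paired analysis was possible because both samples belong to 1 group.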
